A study of Mus musculus with 4 samples.

Results

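A culture of IMS/N cells given palmitic acid (PA) was compared with a control culture of the same cells kept without PA, the array titled with PA against the array titled with the cell name alone. These are 2 of the 4 arrays of the study, and each condition has 1 array. IMS/N is a line of hepatic stellate cells taken from normal mice of the 129/Sv strain and immortalized with SV40 virus. The other 2 arrays, used below for side by side values, hold IMS/N cells given PA and ADSC medium and IMS/N cells given ADSC medium without PA, where ADSC medium is medium from cultures of adipose tissue-derived stem cells of inguinal fat of male C57BL/6J mice aged 8 to 10 weeks. How much PA was used, for how long, and whether the control culture received a vehicle is not stated in the labels. The labels also do not say whether the cultures were set up separately. With 1 array on each side there is no test and no p-value, and every difference below describes a pair of arrays.

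Hepatic stellate cells store retinoids in the healthy liver and turn into contractile, collagen-producing myofibroblasts in fibrosis. Palmitic acid is the commonest saturated fatty acid of the diet and of stored fat, and in many cell types it is known to trigger inflammatory and stress signalling as well as changes in lipid genes. An oligonucleotide array measures the RNA of a gene through 1 or more short probes printed on its surface, so a gene with several probes is measured at several places of its transcript.

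A level here is a log2 intensity, quantile-normalized over the 4 arrays, and a difference is the PA level minus the control level on that log2 scale. A gene was compared when its probe was well above background, by the scanner software's own flag, on at least 1 of the 2 arrays. Of 26793 gene names 18209 were compared, 17607 of them measured on both arrays. Where the probe was well above background on 1 array, the difference is a lower bound and is written "at least". The PA array was the brighter one before normalization, with 70.0% of probes well above background and a 75th percentile of intensity of 622, against 67.5% and 495 on the control array. No spot was saturated, and all arrays lay on 1 slide and were read in 1 scan. Among probes printed on 10 spots, single-spot differences had an SD of 0.25 at levels under 5, 0.13 at 5 to 7, 0.08 at 7 to 9 and 0.06 at 11 and above. That SD covers the printing and reading of spots and not the spread between cultures, which these data do not hold.

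The label was checked against marker genes. Of 19 stellate cell or fibroblast markers 14 were well above background on the PA array and the same number on the control array, with vimentin (Vim) at 16.08 with PA and 16.05 in control, Col1a1 at 14.92 and 15.09, Acta2 at 14.58 and 14.78 and Lhx2, a transcription factor of stellate cells, at 8.96 and 8.89. Others of this list were apart by more than 1.5-fold: the growth factor receptor gene Pdgfrb stood at 11.46 with PA and 12.39 in control, Col3a1 at 11.43 and 12.27, and desmin (Des) at 4.51 and 3.63. Lrat, Reln, Hand2 and Gfap, markers of stellate cells in liver tissue, were not well above background on either array. Several markers of other liver cells were also dim on both: Alb, Apoa1 and Ttr of hepatocytes, Ptprc, Adgre1 and Clec4f of macrophages, Pecam1, Cdh5 and Lyve1 of endothelium, and Epcam and Cdh1 of epithelium. Other markers of the same lists were bright. The endothelial markers Vwf and Kdr stood at 9.26 and 8.77 with PA and 8.99 and 8.30 in control. The macrophage marker Cd14 stood at 8.80 with PA and 9.075 in control, and the epithelial marker Krt7 at 8.64 and 9.19. Counted by list, 4 of 10 hepatocyte, 7 of 10 macrophage, 5 of 10 endothelial and 8 of 10 epithelial markers were well above background on the PA array, with the same counts on the control array. Their part in the differences below was not tested.

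At least 2-fold higher with PA were 199 genes (1.09% of those compared), and 109 were at least 2-fold lower (0.599%). At 1.5-fold the counts were 532 higher (2.92%) and 596 lower (3.27%). Genes of the usual interferon list made up 107 of the 199 higher genes and none of the 109 lower ones, and genes of the lipid list 3 and 1. That left 89 higher and 108 lower genes outside both lists, and the account below is mostly about them. The balance of the 2-fold calls depended on the processing: 64.6% of them were higher, against 58.3% when each array was scaled to its own 75th percentile and 90.6% after normexp, another background correction, which by its construction shrinks the differences of dim probes. Lower genes were mostly dim. Of the 109, 55 had a level under 5 on the brighter array and 2 a level of 11 or more, whereas 57 of the 199 higher genes had a level of 11 or more.

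**Figure D1:**
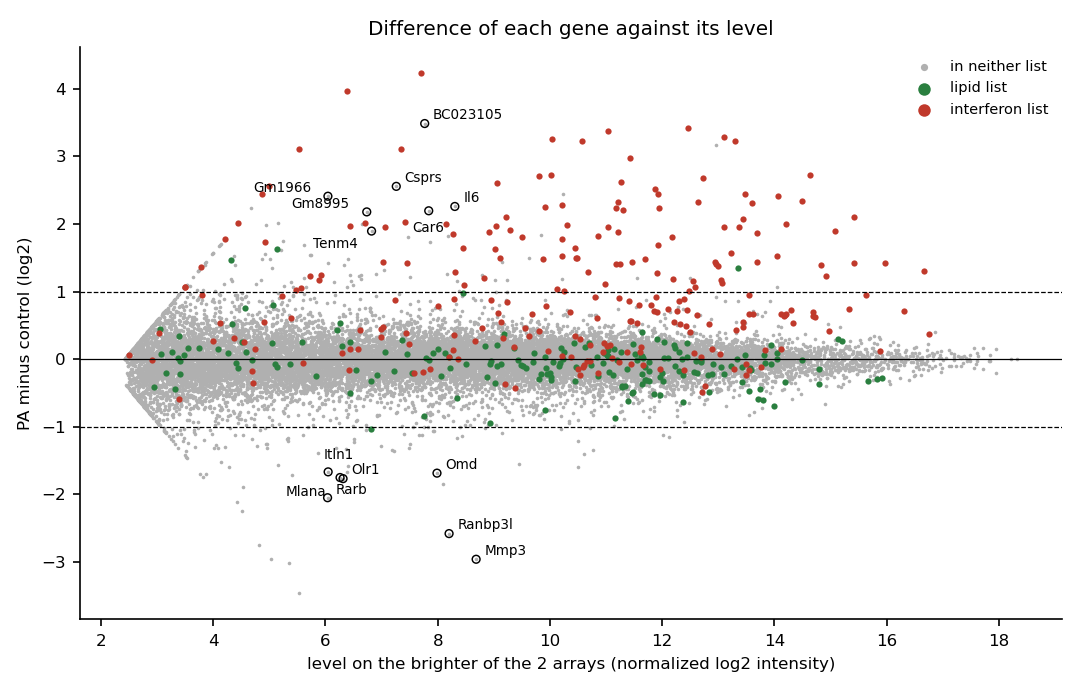
Each point is a gene, placed by its level on the brighter of the PA and control arrays (x axis, normalized log2 intensity) and by its difference, PA minus control (y axis, log2), with dashed lines at 2-fold; red points belong to the interferon list, green points to the lipid list and grey points to neither. Named open circles are outside genes: Mmp3 (-2.96) and Ranbp3l (-2.58) stand lowest among the named ones, and BC023105 (3.48) stands highest; dim genes measured on 1 array run along slanted edges at the left.

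To name genes, those outside both lists had to be measured on both arrays, with a level of at least 5 on the brighter one, to be at least 2-fold different and still at least 1.5-fold under normexp and under the 75th percentile scaling, with all of the gene's measured probes on the same side. This left 37 higher and 41 lower genes. The most different ones, up to 20 on each side, are described first.

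Among the outside genes higher with PA were secreted and signalling proteins. Il6, which encodes the cytokine interleukin-6 (probe at chr5:30346362-30346421, mm9), had a level of 8.31 with PA and 6.05 in control, a 4.78-fold difference. Its probe is printed on 10 spots, whose SD was 0.04 on the PA array and 0.09 on the control array. Car6, the secreted carbonic anhydrase of saliva (chr4:149561287-149561346), had a level of 7.84 with PA and 5.65 in control, 4.57-fold apart. Tenm4, a teneurin, a large transmembrane protein of cell contacts (chr7:104055032-104055091), stood at 6.82 with PA and 4.93 in control, and its second measured probe differed by 1.82 against 1.89 for the first. Pmaip1, which encodes the death-promoting BCL2-family protein Noxa, stood at 6.41 with PA and 4.93 in control. It was the only one of 35 compared genes of death receptors, caspases and the BCL2 family with a difference of 1.5-fold or more, and the median of that list was -0.02. That list leaves out genes held by the interferon list, among them the caspase gene Casp4, at 10.12 with PA and 9.08 in control, and the death ligand gene Tnfsf10, which was at least 1.78 higher on the log2 scale.

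Of the 20 highest outside genes 10 carry no symbol in the reference gene table, and several of them lie beside genes of the interferon list, or are described as one. NAP007796-001 (chr19:34662998-34663057) stood at 12.95 with PA and 9.79 in control, an 8.94-fold difference, 0.107 kb from the probe of Ifit3, an antiviral RNA-binding protein gene, whose own difference was 3.22. TC1651122 (chr14:59968139-59968198), described on the array as a PHD finger protein 11 transcript, stood at 10.23 with PA and 7.79 in control and lay 72.4 kb from Phf11a. NAP046281-1 (chr7:111415183-111415242), at 7.48 with PA and 5.68 in control, lay 5.12 kb from Trim34a. Of the 20, 16 are placed on a chromosome by the array's coordinates, and 7 of these 16 lay within 100 kb of an interferon-list gene that was at least 2-fold higher. None of the 20 lowest outside genes, all placed on a chromosome, did. How many of all genes compared lie that close to such a gene was not counted. Some of the 7 are names at the place of the listed gene itself, such as NAP007796-001 at Ifit3 and ENSMUST00000138143, described as Ifi203. Without a gene model of build mm9, whether these probes lie in exons or introns of those neighbours is not given here.
The first 30 of the 60 bases of these 3 probes, as the array files give them, are shown because no symbol identifies the transcripts.
NAP007796-001: tgagaaaagcatgagccttcctgccaagga
TC1651122: aagaaaggcaaaggcagatgaagaagcagc
NAP046281-1: agctgaagaggtagagagatgccagtcaca

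BC023105, listed as a pseudogene in the gene table, had the largest difference of the outside genes that passed the rule: 7.77 with PA and 4.29 in control on its brighter probe, 11.2-fold apart, and a difference of 3.62 on the second. Predicted genes in a run with Gvin1, a gene of very large interferon-inducible GTPases, formed another group. Gm1966 stood at 6.04 with PA and 3.64 in control, and Gm8995 at 6.74 and 4.56. ENSMUST00000184842, which the array describes as a transcript of Gm8995 too, stood at 7.66 with PA and 5.75 in control, so that gene is counted under both names. Gvin1 itself differed by 1.97, 3.02 and 3.11 on 3 probes. ENSMUST00000138143, at 6.65 with PA and 4.64 in control, is described on the array as a transcript of Ifi203, a member of the interferon list, and is counted as outside by its name alone.

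**Figure D2:**
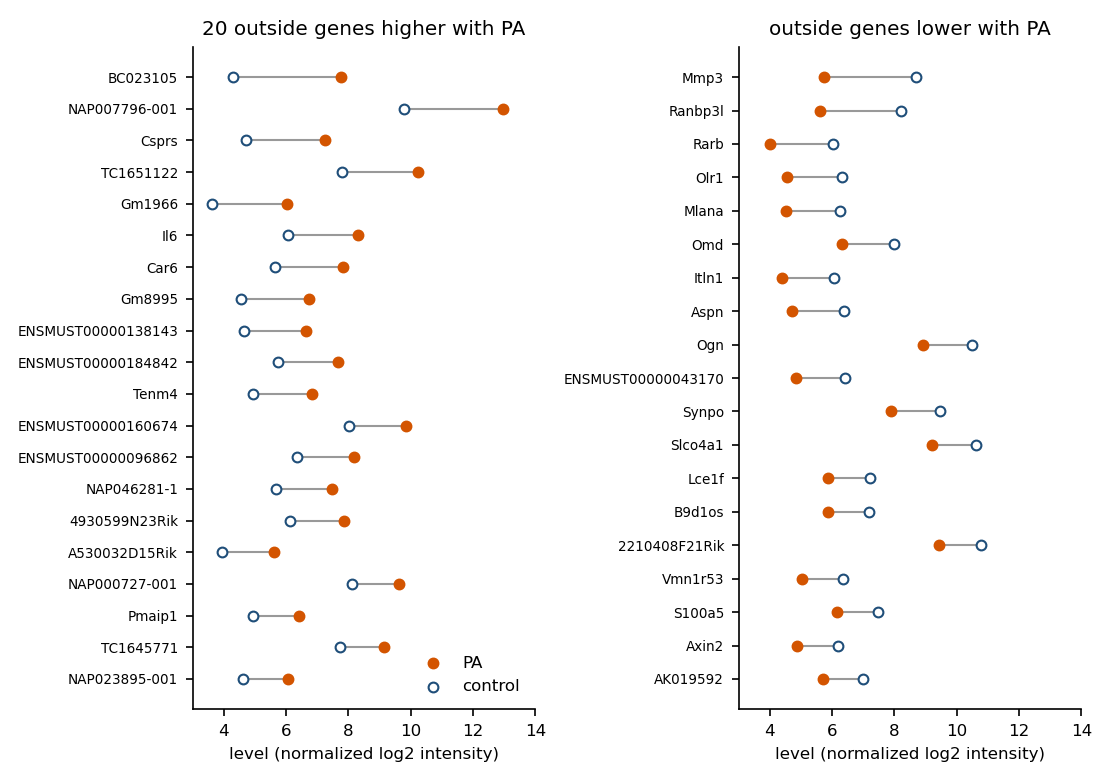
Levels (x axis, normalized log2 intensity) of the 20 highest (left) and, less 1 not reported here, the 20 lowest (right) outside genes that passed the rule, with filled orange points for the PA array and open blue points for the control array. BC023105 had a level of 7.77 with PA and 4.29 in control, and Mmp3 5.73 and 8.69.

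The next 17 outside genes on the higher side differed by 1.01 to 1.40 and included several genes better known from blood cells. Cd80, a ligand that gives T cells a second signal, stood at 6.60 with PA and 5.37 in control, and Lck, a Src-family kinase of T cells, at 7.51 and 6.29. Hdc, the enzyme that makes histamine, stood at 6.63 with PA and 5.39 in control. The lymphocyte markers Cd3e, Cd4 and Cd79a differed by -0.13, -0.15 and -0.12. Brighter genes of this group were Tmem140, a small membrane protein, at 12.50 with PA and 11.30 in control, and Slc16a3, the lactate exporter MCT4, at 11.55 and 10.34. Zfas1, a noncoding RNA that hosts small nucleolar RNAs, stood at 14.05 with PA and 12.98 in control, and Tmem106a at 10.22 and 9.04 with 2 probes at 1.18 and 1.29.

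Promoters of the outside genes were searched for 4 short motifs on both strands, in windows of 250 bases before to 50 after each start in RefSeq (GRCm38.p6). The choice of motifs was made with the differences known. GAAANNGAAA, the core of the interferon-stimulated response element, was found in 6 of the 19 higher outside genes with a promoter in the table (31.6%), in 1 of the 26 lower ones (3.85%) and in 3.99% of all 27025 symbols. For the 79 interferon-list genes at least 2-fold higher with a promoter the share was 54.4%. TGANTCA, the AP-1 site, was found in 3 of the 19 higher and 6 of the 26 lower genes, against 8.97% of all. The NF-kB form GGGNNTTTCC was in 1 higher gene, Il6, and in no lower gene (1.89% of all), and the TCF form CTTTGAT was in 1 higher gene, Hdc, and in no lower gene (4.29% of all). A match is a string of letters and does not show binding.
Stretches around the match are shown for the genes whose values are given above or in the plot of levels, 5′ to 3′ on the gene's strand, with the match in capitals. Tenm4 is at chr7:96171133-96171202, 4930599N23Rik at chr6:39118223-39118275, Tmem140 at chr6:34863053-34863122, Gm1966 (match on the opposite strand) at chr7:106644769-106644838, Il6 with the NF-kB form at chr5:30013040-30013109, and Mmp3 with the AP-1 site at chr9:7445746-7445812, all on GRCm38.p6.
Tenm4: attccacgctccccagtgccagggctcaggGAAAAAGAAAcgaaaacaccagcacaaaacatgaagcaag
4930599N23Rik: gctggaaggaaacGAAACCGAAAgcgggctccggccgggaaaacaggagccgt
Tmem140: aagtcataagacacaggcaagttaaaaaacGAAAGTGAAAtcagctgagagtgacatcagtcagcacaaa
Gm1966: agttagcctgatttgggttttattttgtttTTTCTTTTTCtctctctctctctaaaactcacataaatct
Il6: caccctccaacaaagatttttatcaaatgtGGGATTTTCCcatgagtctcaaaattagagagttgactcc
Mmp3: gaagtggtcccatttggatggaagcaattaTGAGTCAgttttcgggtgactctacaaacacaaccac

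Extracellular matrix genes led the lower side. Mmp3, the matrix-degrading enzyme stromelysin-1 (chr9:7455751-7455810), stood at 5.73 with PA and 8.69 in control, a 7.77-fold difference. The 3 small leucine-rich proteoglycan genes that sit side by side on chromosome 13 were lower together. Asporin (Aspn, chr13:49662479-49662538) stood at 4.72 with PA and 6.38 in control, osteomodulin (Omd, chr13:49687847-49687906) at 6.30 and 7.99, and osteoglycin (Ogn, chr13:49719549-49719608) at 8.91 and 10.50. Of the 12 compared genes of this family and its neighbours 4 were at least 1.5-fold lower, these 3 and Prelp at -0.62, none was as much higher, and the median was -0.26, or -0.10 with normexp, beside -0.008 for all genes compared. Npnt, nephronectin, an integrin ligand of basement membranes, stood at 5.68 with PA and 6.73 in control.

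C3, the central component of complement, is a gene of the interferon list. It was higher on a 10-spot probe, at 9.24 ± 0.05 with PA (SD, 9 spots) and 8.40 ± 0.08 in control (SD, 10 spots).

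Genes of retinoid handling and of xenobiotic oxidation were among those apart. Rarb, the retinoic acid receptor beta gene and itself a known retinoid target (chr14:17263511-17263570), stood at 3.99 ± 0.08 with PA (SD, 9 spots) and 6.04 ± 0.08 in control (SD, 10 spots). Cyp26a1, which degrades retinoic acid and is also retinoid-induced, went the other way, at 5.003 with PA and 3.52 in control, a difference of 1.49 that was 0.43 with normexp. The unnamed transcript NAP023895-001, 6.03 kb from it on chromosome 19, stood at 6.05 with PA and 4.62 in control. Cyp26b1, of the same enzyme family, differed by -0.84. Cyp1b1, a cytochrome P450 that oxidizes hormones and aromatic compounds, stood at 9.68 with PA and 10.71 in control, with a second probe at -1.64. Cyp1a1 was measured in control alone, at 3.82, and was at least 3.35-fold lower with PA, a difference that was -0.35 with normexp. Over the 50 compared cytochrome P450 genes the counts at 1.5-fold were 1 higher and 5 lower, with a median of -0.005.

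The other lower genes had varied roles. Ranbp3l, a Ran-binding protein, stood at 5.62 with PA and 8.20 in control. Olr1, the receptor LOX-1 for oxidized lipoproteins, stood at 4.55 with PA and 6.31 in control, and its neighbour Clec1a differed by -1.31. Axin2, a negative regulator and widely used readout of Wnt signalling, stood at 4.88 with PA and 6.19 in control. Synpo, the actin-associated protein synaptopodin, stood at 7.90 with PA and 9.45 in control on its brighter probe, but its second probe differed by -0.32. Slco4a1, an organic anion transporter, stood at 9.21 with PA and 10.62 in control. It was the only one of 5 compared Slco genes at 1.5-fold or more. Further down the list, the kinase gene Dmpk differed by -1.21 with 3 probes on the same side, Tmem119 by -1.16, the interleukin-12 receptor gene Il12rb1 by -1.12, the angiopoietin gene Angpt2 by -1.11 and the aldehyde oxidase gene Aox1 by -1.07.

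Most gene lists and families outside the interferon and lipid lists centred near 0. Over all genes compared, 3.27% were at least 1.5-fold lower and 2.92% at least 1.5-fold higher, and the counts of small lists below stand beside those shares. Glutathione S-transferases, which conjugate electrophiles, had 6 of 21 compared genes at least 1.5-fold lower and none as much higher (median -0.14, or -0.10 with normexp). The 6 were led by Gsta4 at -0.98 and included the bright genes Gstm3, at 12.44 with PA and 13.14 in control, and Gstm1, at 13.72 and 14.31. The rest of the 6, Gsta1, Gsta2 and Gstt4, were dimmer, at 5.88, 5.05 and 3.10 in control. With normexp Gsta1 differed by -0.34, Gsta2 by -0.23 and Gstt4 by 0.009. Cadherins and protocadherins had 5 of 38 at least 1.5-fold lower and none as much higher (median -0.17), with Pcdh9 at -0.88 and Pcdh10 at -0.73. The rest of the 5, Cdh26, Pcdh12 and Cdh24, were dim, at 3.15, 3.13 and 3.33 in control. With normexp they differed by -0.08, -0.07 and -0.08. Of 50 actin and focal adhesion regulators 3 were lower and none higher (median -0.15), namely Synpo, Dmpk and Tns2 at -0.62. Of 47 histone genes 4 were lower and 1 higher (median -0.18, or -0.27 with the 75th percentile scaling), with H2ap at -1.21 and Hist1h1c at -0.70 against H2bc21 at 0.65. H2ap was dim, at 2.25 with PA and 3.46 in control, and differed by -0.14 with normexp. Integrins had 3 of 25 lower, Itgb2, Itga8 and Itgb7, and none higher (median -0.17, or -0.004 with normexp).

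Some families had no member at 1.5-fold and most members on 1 side of 0. Over all genes compared 48.5% were higher and 51.3% lower by any amount, with a median of -0.008, or -0.05 with the 75th percentile scaling. Of 20 aminoacyl-tRNA synthetases, which charge tRNAs, 19 were higher by any amount (median 0.13, or 0.06 with the 75th percentile scaling). The DNA replication licensing family of MCM helicase and origin genes had 21 of 23 higher (median 0.15, 0.14 under both other scalings). Mitochondrial ribosomal proteins had 49 of 77 higher (median 0.07, or 0.008 with the 75th percentile scaling). Of 32 constitutive proteasome subunits 24 were lower (median -0.05, or -0.14 with the 75th percentile scaling). In the Notch list Dtx4 differed by -0.99, the ligand gene Dll1 by 0.78 and Hey2 by 0.62. Hey2 was dim, at 3.88 with PA and 3.26 in control. With normexp Dtx4 differed by -0.98, Dll1 by 0.24 and Hey2 by 0.08. In the Hedgehog list, Gas1, a co-receptor, differed by -0.99 and Kif7 by 0.63. Clock genes had 1 of 19 at 1.5-fold, Hlf at -0.63, and the TCA cycle list 1 of 26, Idh1 at -0.63. None of the 30 lysosomal hydrolases and cathepsins or of the 22 MAPK phosphatases and Sprouty proteins reached 1.5-fold.

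**Figure D3:**
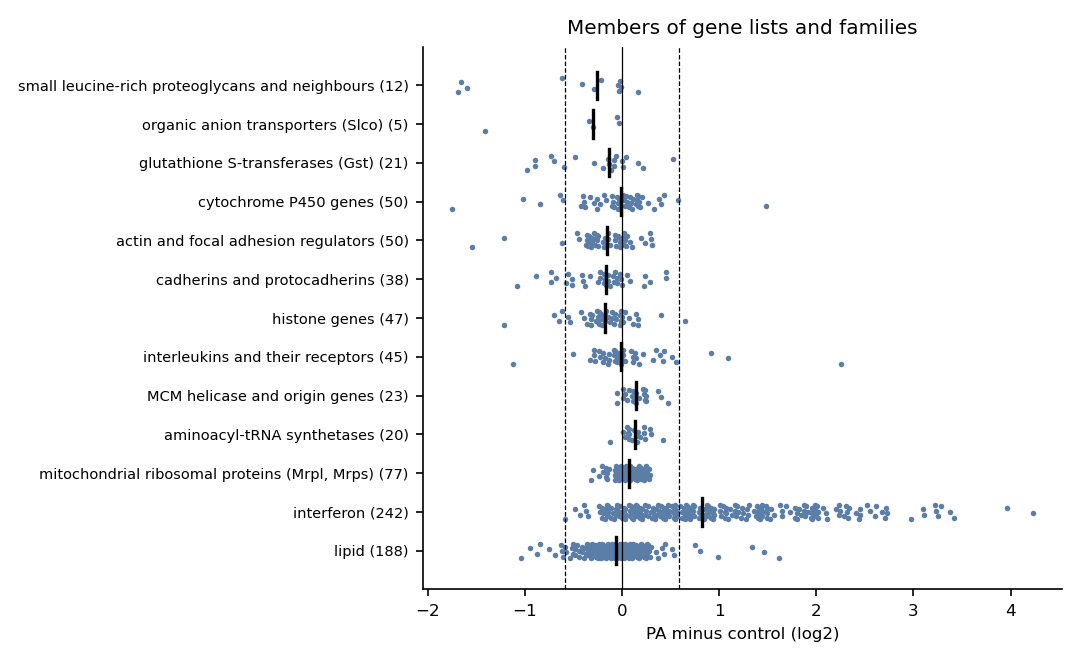
Differences of the members of 13 gene lists and families (x axis, PA minus control, log2), each point a gene, each black bar the list's median, with dashed lines at 1.5-fold and the number of compared genes in brackets. The interferon list has its median at 0.82, while the proteoglycan family has 3 genes near -1.6 and a median of -0.26, and aminoacyl-tRNA synthetases sit at a median of 0.13 with no gene past the lines.

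Some genes were measured on 1 array alone. Of the 199 higher genes 32 are lower bounds, and of the 109 lower genes 23. The highest bounds were those of chemokines and interferon genes: Cxcl11, a transcribed pseudogene in the reference gene table, was at least 15.6-fold higher and the interferon beta gene Ifnb1 at least 8.61-fold higher, with levels of 6.39 and 5.53 on the PA array. Gbp4, Mx1, AW112010 and Cxcl9 followed. With normexp the differences of these 6 lay between 0.38 and 1.15. On the lower side, 1700016C15Rik was measured at 5.53 in control and was at least 10.98-fold lower with PA. Lgr6, an R-spondin receptor, was at least 8.09-fold lower (a second probe, measured on both arrays, differed by -1.07), Klk1b27 at least 7.78-fold and the peptide transporter gene Slc15a3 at least 6.73-fold. With normexp the differences of these 4 lay between -0.82 and -0.50.

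Where a gene had several probes, their differences could be set against each other. Of 6606 genes with at least 2 probes measured on both arrays there were 14756 pairs of probes. In 834 pairs, from 457 genes, at least 1 probe differed by 1.5-fold or more, and in 719 of these (86.2%) both probes lay on the same side of 0. Both reached 1.5-fold in 269 pairs (32.3%), and in 1 pair they did so in opposite directions. The share on the same side was 77.2% where the dimmer probe had a level under 5 and between 93.8% and 97.0% in the brighter classes. In the interferon list all 111 such pairs lay on the same side, and outside both lists 587 of 701 (83.7%). Of the 834 pairs, 13 share a stretch of 20 or more bases; without them the share was 86.1%. Where the brighter probe was at least 2-fold higher, the other was on its side in 79 of 80 pairs, and where it was at least 2-fold lower, in 21 of 22.

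**Figure D4:**
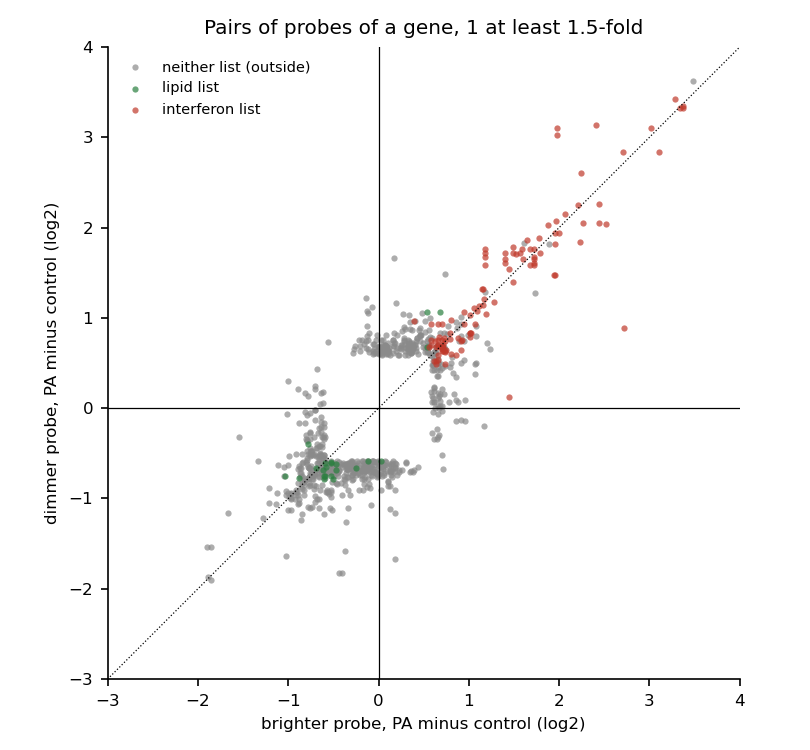
Differences of the brighter (x axis) and dimmer (y axis) probe of a gene, PA minus control (log2), for the 834 pairs with at least 1 probe at 1.5-fold or more, coloured by list, with a dotted line where both are equal. Interferon-list pairs (red) follow the line, while many outside pairs (grey) have 1 probe past 1.5-fold and the other near 0; 719 pairs lie on the same side of 0.

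Genes whose probes all lay past 2-fold numbered 38 higher and 5 lower. Ddx58 had 4 such probes, between 1.40 and 1.72, and Rsad2 had 3, between 3.33 and 3.37. Outside both lists 5 higher and 5 lower genes had all of their measured probes past 2-fold. The higher ones were BC023105, Tenm4, the chemokine-binding receptor gene Ccrl2 (1.61 and 1.83), 4930599N23Rik (1.73 and 1.27) and Tmem106a, and the lower ones included the defensin gene Defb1 (-1.88 and -1.86), Cyp1b1, Sec1 (-1.28 and -1.22) and Lrrn3 (-1.13 and -1.06). The 2 probes of Defb1 overlap on the genome, at chr8:22905041-22905100 and chr8:22905030-22905089.

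In 13 genes, of 92 with several measured probes and 1 past 2-fold, the probes disagreed, with 1 past 2-fold and another on the other side of 0 or within 0.25 of it. In Plekha4 the probe at chr7:52809522-52809581 stood at 9.03 with PA and 7.86 in control, while the one at chr7:52803400-52803459 stood at 8.09 and 8.28. In Sp110, an interferon-list gene, the probe at chr1:87473532-87473591 stood at 11.46 with PA and 10.02 in control, and that at chr1:87493847-87493906 at 6.78 and 6.66. Both of these splits were between probes at levels above 6, and both were of like size on the arrays with ADSC medium, 1.06 against -0.01 for Plekha4 and 1.08 against -0.05 for Sp110.
The first 30 bases of these probes show that the 2 probes of each gene read different stretches.
Plekha4, 1.17: aagattgattttcccaacactgtccaaaat
Plekha4, -0.19: acatactgatcccaagtctccatcccctgc
Sp110, 1.44: cttgttcacagctgacttacaatggcaaag
Sp110, 0.12: agttgaagagattgggaaagaagaagaaag

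In other disagreeing genes the probe past 2-fold was the dimmer one. Hecw2, a ubiquitin ligase gene, had its brightest probe at 7.43 with PA and 7.24 in control, and 2 dimmer probes at -1.67 and -1.17. Those 2 differed by 1.18 and 1.39 on the arrays with ADSC medium. Ago4, an Argonaute protein gene, had 5 probes between -0.13 and 1.08, with the brightest at the low end. Coro2b had -0.14 on its brighter and 1.22 on its dimmer probe, and Htra3 had 0.13 and -1.11. Prr15l was an exception, with its brighter probe past 2-fold, at 4.68 with PA and 5.68 in control, and the dimmer one at 0.30. In Cngb1 both probes match RefSeq accessions of 1 gene, but the array places one on chromosome 5 and the other on chromosome 8, and the one on chromosome 8 was past 2-fold.

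The 10-spot probes give the same comparison with less reading error. Of 244 such probes 173 were well above background on at least 8 spots of both arrays, and of these 11 were at least 1.5-fold higher (6.36%) and 3 lower (1.73%). Besides Il6, Rarb and C3 they included Des at 0.88, the macrophage growth factor gene Csf1 at 0.87, Dll1 at 0.78, Chgb at 0.76, the class I histocompatibility genes H2-K1, H2-M2 and H2-Q7 at 0.72, 0.65 and 0.64, and the p53 regulator gene Mdm2 at 0.59. Lower were Col2a1, at 7.94 ± 0.04 with PA and 8.84 ± 0.05 in control (SD, 10 spots each), and Gsta4. The single-spot SD of these 14 differences ranged from 0.05 to 0.32 and does not cover the spread between cultures.

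Some genes that differed the same way lay next to each other. Ordering the compared genes by position gave 30 runs of at least 3 successive genes, each past 1.5-fold in 1 direction and with gaps of at most 500 kb. Of these runs 18 were higher and 12 lower, with 127 of the 17804 genes that have a position, and 13 held no gene of either list. How many runs another order of the genes would give was not counted. Names at 1 place can count as separate genes, such as NAP007796-001 and Ifit3, whose probes lie 0.107 kb apart. The 2 longest had 9 genes each. One on chromosome 1 held Ifi207, Ifi204, AK079715, Ifi211, Ifi203, ENSMUST00000138143, AK080088, Ifi202b and Ifi205, of which 3 are outside the lists by name, ENSMUST00000138143 being described as Ifi203. The other on chromosome 5 held Oas2, Oas3, Oas1e, Oas1c, Oas1b, Oas1f, Oas1g, Oas1a and Oas1d, the sensors of double-stranded RNA, between 1.41 and 2.52. Trim34a, NAP046281-1, Trim12a, Trim12c, Trim30a and Trim30d formed a run of 6 on chromosome 7, and Gbp5, Gbp7, Gbp3, Gbp2b and Gbp2 a run of 5 on chromosome 3.

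The longest lower run was in the late cornified envelope cluster of chromosome 3, whose genes are known from the epidermis. Lce1f stood at 5.86 with PA and 7.21 in control, Lce1g at 10.44 and 11.31, Lce1h at 5.18 and 6.08, Lce1i at 9.36 and 10.20, Lce1j at 7.04 and 7.86, and the adjoining keratinocyte gene Kprp at 3.89 and 4.91. The probes of these 6 genes share no stretch of 20 bases, and the best match between any 2 has 33 identical bases. Probes without such a stretch can still be much alike, as those of Vmn1r40 and Vmn1r41 below. Whether a probe of this run also reads the RNA of a neighbour was not tested. Other lower runs without a listed gene included the proteoglycan group above, Gsta4, Gsta1 and Gsta2 on chromosome 9, where the probes of Gsta1 and Gsta2 share at least 20 bases, and 4 vomeronasal receptor genes on chromosome 6. In that last run, Vmn1r40 and Vmn1r41 have probes with 54 identical bases of 60, so their differences of -1.26 and -0.97 are not independent measurements.
The first 30 bases of these 2 probes (chr6:89664632-89664691 and chr6:89696912-89696971, mm9) show the likeness, with capitals for bases that differ or have no partner in the alignment.
Vmn1r40: TttagcagtcacctcttcAtatcGattatt
Vmn1r41: ttagcagtcacctcttcTtatcAattattg

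The same contrast can be read on the other 2 arrays, PA and ADSC medium minus ADSC medium, which share no array with the comparison of PA and control. They are no replicate, since both cultures also had ADSC medium, and all 4 arrays were normalized together. On those arrays 3.54% of 18465 genes were at least 1.5-fold higher and 3.14% at least 1.5-fold lower. Of the 37 outside genes higher with PA that passed the rule, 36 were at least 1.5-fold higher there too. The exception was Sox13, a transcription factor gene, with levels of 6.63 with PA and 5.44 in control but 5.50 with PA and ADSC medium and 5.51 with ADSC medium. Il6 differed by 2.26 without and 2.39 with ADSC medium, BC023105 by 3.48 and 2.93, and Tenm4 by 1.89 and 1.76.

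Of the 41 outside genes lower with PA that passed the rule, 30 were lower by any amount on those arrays, 18 of them by at least 1.5-fold, and 6 were at least 1.5-fold higher. Mmp3 stood at 8.29 with PA and ADSC medium and 10.34 with ADSC medium, a difference of -2.05 beside -2.96. Mlana had -2.17 beside -1.75 and Rarb -1.74 beside -2.05. The proteoglycan genes parted there, with Ogn at -1.02, Omd at -0.66 and Aspn at 0.09. Ranbp3l stood at 10.49 with PA and ADSC medium and 9.61 with ADSC medium, and Slco4a1 at 12.90 and 11.87. The others on the opposite side were Lce1f (0.63), 9930024M15Rik (0.80), Cck (0.85) and Lrrn3 (0.86). The 6 genes of the Lce1f to Kprp run were all higher there, by 0.12 to 1.15. Over all 199 higher genes the median was 1.496 without and 1.32 with ADSC medium, and over all 109 lower genes -1.21 and -0.60. The members were chosen for their size on the first pair of arrays, so some shrinkage on the second is built into that choice. None of these differences between contrasts was tested.

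**Figure D5:**
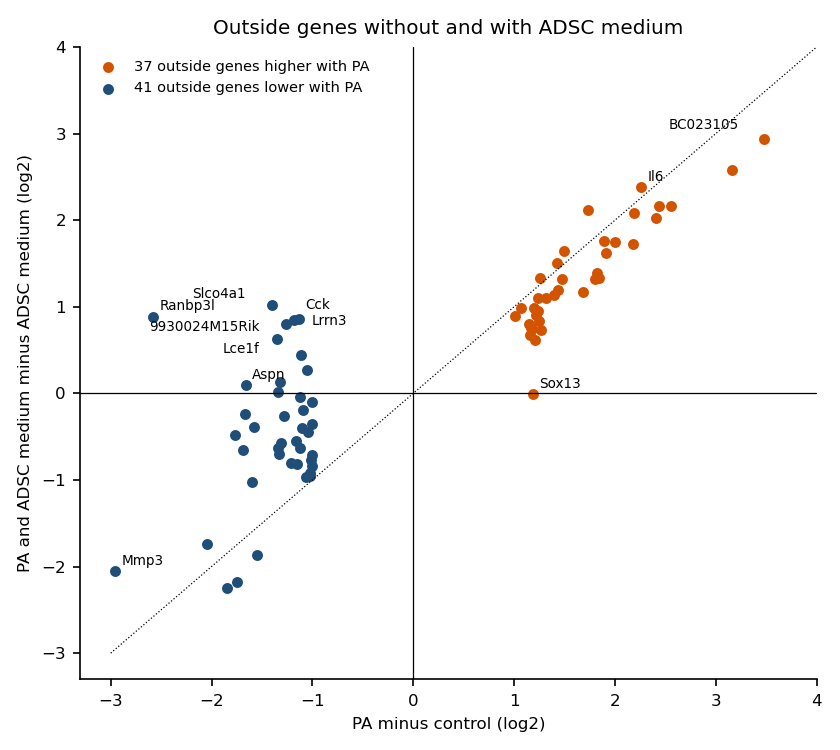
Each point is an outside gene that passed the rule, with PA minus control on the x axis and PA and ADSC medium minus ADSC medium on the y axis (log2 both), orange for the 37 higher and blue for the 41 lower genes, with a dotted line where both are equal. All orange points but Sox13 (1.19 and -0.01) lie well above 0 on the y axis, while blue points lie on both sides of 0, with Mmp3 at -2.05 and Slco4a1 at 1.03.

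The authors' deposited table of probes higher in PA than in control holds 1580 probe names without values. On the levels used here all of them were higher on the PA array, the least by 0.08, with a median of 0.58, and 292 reached 2-fold while 773 reached 1.5-fold. Before normalization between arrays 613 of them reached 2-fold. Well above background on both arrays were 890 of them, on 1 array 348, and on neither 342 (21.6%). Of the 229 probes measured on both arrays and at least 2-fold higher, 153 are in the authors' deposited table (66.8% of these probes, 9.68% of the table). Of the 76 that are not, 53 have another probe of the same gene in it, and the table holds more than 1 probe for 5 of its 1575 gene names. Of the 37 outside genes higher with PA that passed the rule, 26 have a probe in the authors' deposited table.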

How the data were processed

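Total RNA of IMS/N cells was hybridized to 4 one-colour Agilent arrays (design 014868, coordinates on mm9), 1 per condition, after extraction with ISOSPIN and Cy3 labelling with a Quick Amp labeling kit, as the labels' protocols state. The deposited intensity of each spot is Feature Extraction 12.1.1.1's processed signal, background-subtracted and detrended within each array without normalization across arrays, per the file headers. Quantile normalization followed according to the series' design text, and the submitters' processing notes name R 3.5.1. The authors' deposited table of probe names gives no threshold in the sources used here.

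From these intensities, control and outlier-flagged spots were dropped, log2 values of spots of a probe averaged, and the 4 arrays quantile-normalized (limma 3.58.1, R 4.3.3; Python 3.11.15, numpy 2.4.6, pandas 2.3.3, scipy 1.17.1, matplotlib 3.10.9). Of 41174 probes 41146 had a value on all arrays. A probe was well above background when more than 50% of its spots carried that flag. Names came from the RefSeq gene table by accession for 28680 probes and from the array for 12466. For each gene the probe brightest on average across the 4 arrays was used. A dimmer value not well above background was replaced by its array's lowest level among probes well above background, where that was higher (2.07 for PA, 2.43 for control), and 363 genes whose bound then pointed the other way were left out.

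Genes were named by a rule: outside the lists, the 20 highest and 20 lowest that passed the criteria given in the report; 8 genes whose probes disagreed most and 10 with most probes past 2-fold; the 6 highest and 6 lowest lower bounds; up to 4 members of a list past 1.5-fold; the 5 longest runs; 10-spot probes past 1.5-fold; and label markers. Some genes that the rule names are not reported here, though counts include them. Other names in the report were chosen after their values were seen. The 21 gene lists, 28 families and the comparison itself were chosen with earlier results of these data known. The probe alignment was checked on made sequences, and normalization on simulated arrays. Alternatives were the 75th percentile scaling, quantile normalization of the PA and control arrays alone, normexp background (offset 50), no filter on dim probes, probes measured on both arrays only, and the mean of a gene's probes.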

Additional observations from a re-analysis of the deposited data

Results flagged for a closer look

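In 12 of the genes named by rule or as list members, PA went with a lower level without ADSC medium and with a higher level in its presence, each by at least 1.5-fold. Ranbp3l differed by -2.58 (PA minus control) and by 0.89 (PA and ADSC medium minus ADSC medium), and Slco4a1 by -1.41 and 1.03 in the same order. In the late cornified envelope cluster, Lce1f had -1.35 and 0.63, Lce1g -0.88 and 1.12, Lce1h -0.89 and 0.91, Lce1i -0.84 and 1.15, and Lce1j -0.82 and 1.103. 9930024M15Rik had -1.26 and 0.80, the peptide hormone gene Cck -1.18 and 0.85, and Lrrn3 -1.13 and 0.86. The cholesterol transporter gene Abcg1 had -0.85 and 0.86, and the potassium channel subunit gene Kcne2 -0.66 and 0.59. Kcne2 was dim, at 2.39 with PA and 3.06 in control, and its difference between these arrays was -0.10 with normexp. With 1 array for each condition the difference between these contrasts was not tested.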

How the results depend on the processing

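The count of genes at least 2-fold higher with PA was 199, and lay between 167 and 199 with the 75th percentile scaling, quantile normalization of the PA and control arrays alone, probes measured on both arrays or the mean of a gene's probes; the count of lower genes was 109, and lay between 86 and 135 under the same settings. With the normexp background the counts were 106 higher and 11 lower, and with dim probes kept they were 664 and 552. Normexp adds an offset, which shrinks differences of dim probes by construction. The share of probe pairs on the same side, 86.2%, was 95.9% with normexp and 95.2% where both probes had a level of at least 8, and 85.4% with the 75th percentile scaling. Of the 40 named outside genes none turned its sign under any setting run. Their selection had already required the same side under normexp, under the 75th percentile scaling and for all measured probes. Their kept sign was therefore largely fixed in advance. With normexp 38 of the 40 moved by more than the SD between single spots, and with the mean of a gene's probes 5 did. No paired analysis was possible because each group has 1 array. Signal limits the dim genes most: under a level of 5 the SD of a single-spot difference was 0.25, and the number of arrays limits all.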
